A study of Mus musculus with 4 samples.

Results

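Gluconeogenesis and its control by insulin were followed through 9 genes in liver. The genes were taken by name, and every probe set whose annotation gave 1 of these symbols was used, which came to 21 probe sets of 22690 on the array and 9 of 12394 named genes. Pck1, G6pc, Fbp1 and Pcx are the enzymes particular to glucose output, and Ppargc1a, Foxo1 and Klf15 are transcriptional regulators of that output. Igfbp1 and Irs2 are genes that insulin represses in hepatocytes. Fbp1, G6pc, Igfbp1, Irs2 and Klf15 had 1 probe set each, Pck1 had 2, Foxo1 had 4, and Ppargc1a and Pcx had 5 each, 4 of those of Pcx being control probe sets of the array.

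Liver total RNA came from 4 ABCA1-TG mice, which overexpress the cholesterol transporter ABCA1, with 1 array per mouse. All were C57BL/6 males of 5 to 6 months on the NIH36 diet, and the labels do not name the promoter, the species of the transgene, the time of day or whether the mice had been fasted. The labels also disagree on the shared LDL receptor background, which is given as -/- in the series title and as +/- in the sample descriptions. Wild-type arrays, which the design names, were not analysed here, so no effect of the transgene was tested and each comparison below is between ABCA1-TG livers, called mouse 1 to mouse 4 after their replicate numbers.

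When glucose is short, the liver makes it from lactate, amino acids and glycerol. Pyruvate carboxylase and phosphoenolpyruvate carboxykinase start the route, fructose bisphosphatase carries it past an irreversible step of glycolysis, and glucose phosphatase releases free glucose. Glucagon, acting through cyclic AMP and CREB, and glucocorticoids raise these genes, whereas insulin signals through IRS proteins and AKT to keep FOXO1 out of the nucleus and so lowers FOXO1 targets.

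The DNA before these genes was searched for short sequences that factors of this control bind, so that they can be set beside the levels. RefSeq windows of the 250 bases before an annotated start were at hand for 9 of 9 genes, with 2 starts for Pcx, and 5 short motifs were sought on both strands. The insulin response core CAAAACA, which FOXO proteins bind, was found before G6pc, Igfbp1 and Irs2, which is 3 of 10 windows, against 5.56% of 32851 windows of all genes. The cyclic AMP response element ACGTCA was found before Pck1 and Ppargc1a, against 6.47% of all windows. TATAAA was found before G6pc, against 12.4%, and GTAAACA (FOXO and FOXA core, 3.17% of all windows) and AGAACA (glucocorticoid receptor core, 16.1%) had 0 matches in the 10 windows. No match overlapped a match of another motif. The 5 stretches with a match are printed below from build GRCm38.p6, 5′ to 3′ on the strand of the gene, with the matched letters in capitals, CAAAACA being printed as TGTTTTG where it lies on the other strand. A match says only that the letters are there. The stretch of Pck1 lies at chr2:173152967-173153002 (+), G6pc at chr11:101367527-101367707 (+), Ppargc1a at chr5:51567755-51567790 (-), Igfbp1 at chr11:7197664-7197700 (+) and Irs2 at chr8:11008945-11008981 (-). Counted from the start, the matches lie at -91 to -86 in Pck1, -50 to -45 in Ppargc1a, -108 to -102 in Igfbp1, -37 to -31 in Irs2, and -174 to -168 (CAAAACA) and -29 to -24 (TATAAA) in G6pc. All 5 stretches lie upstream of the annotated start, and for Ppargc1a this is the start given in the table among several transcripts.
Pck1: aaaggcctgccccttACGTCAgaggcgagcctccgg
G6pc: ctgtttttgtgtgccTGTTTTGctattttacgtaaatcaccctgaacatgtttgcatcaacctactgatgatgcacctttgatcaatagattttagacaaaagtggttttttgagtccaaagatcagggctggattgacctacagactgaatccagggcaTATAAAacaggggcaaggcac
Ppargc1a: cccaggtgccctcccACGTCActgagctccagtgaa
Igfbp1: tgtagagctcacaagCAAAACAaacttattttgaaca
Irs2: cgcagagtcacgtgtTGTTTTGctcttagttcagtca

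Values are the deposited signal intensities on the log2 scale, and a gene with several probe sets is followed on its lead probe set, the 1 with the highest mean. Levels are compared between mice and never between probe sets, because probe sets bind with different strength. The medians of the 4 arrays were 8.12, 8.24, 8.26 and 8.06 log2 in mice 1 to 4. Abca1 itself measured 12.67, 12.68, 12.92 and 13.00 log2 in mice 1 to 4 on its brightest probe set. Hepatocyte markers were bright in each liver, with no signal under 16417 among the 9 of 12 genes measured.

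Each of the 4 enzyme genes had a narrow range between livers. The spread usual for such bright levels, the prior SD, is also small, at 0.12 to 0.14. Relative to it the SD was 0.88 for Pck1, 1.09 for G6pc, 0.74 for Fbp1 and 0.58 for Pcx. Pck1, phosphoenolpyruvate carboxykinase, measured 13.77, 13.81, 13.53 and 13.72 log2 in mice 1 to 4, a mean of 13.70 ± 0.12 (SD, n = 4). Mouse 3 was lowest, and the extremes differed by 1.22-fold. G6pc, the catalytic subunit of glucose phosphatase, measured 13.31, 13.69, 13.54 and 13.56 log2 in mice 1 to 4, with an SD of 0.16 and extremes 1.30-fold apart. Mouse 1 was lowest and mouse 2 highest. Fbp1, fructose bisphosphatase, measured 15.47, 15.68, 15.58 and 15.60 log2 in mice 1 to 4, with an SD of 0.086. Its order of mice was that of G6pc, with extremes 1.15-fold apart. Pcx, pyruvate carboxylase, measured 13.61, 13.78, 13.67 and 13.60 log2 in mice 1 to 4, and its SD of 0.082 and 1.13-fold range were the narrowest of the 9 lead probe sets. Without mouse 2 the SD of Pcx was 0.038, without mouse 1 that of G6pc was 0.080 and without mouse 3 that of Pck1 was 0.045.

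Insulin-repressed genes differed more in Igfbp1 than in Irs2. Igfbp1, a secreted binding protein for insulin-like growth factors, measured 10.27, 10.70, 10.50 and 10.19 log2 in mice 1 to 4. These are signals of 1232, 1666, 1445 and 1165, with mouse 2 at the top and mouse 4 at the bottom, 1.43-fold apart. Its mean was 10.41 ± 0.23 (SD, n = 4). Irs2, an adaptor between the insulin receptor and AKT signalling, measured 7.35, 7.62, 7.51 and 7.54 log2 in mice 1 to 4. The SD of 0.11 (n = 4) was 0.30 times the prior SD, the spread usual for its low level, and without mouse 1 it was 0.060.

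Among the regulators, Ppargc1a had the widest range of the 9 genes. Ppargc1a, the coactivator PGC-1α that works with FOXO1 on the enzyme genes, measured 8.93, 9.20, 8.16 and 8.93 log2 in mice 1 to 4. Signals were 489, 589, 287 and 489, so mouse 3 stood below the other 3 livers and the extremes were 2.05-fold apart. The SD was 0.45 (n = 4), and without mouse 3 it was 0.16. Foxo1, the forkhead factor that insulin holds back, measured 11.57, 11.41, 11.19 and 11.72 log2 in mice 1 to 4, with an SD of 0.23. Mouse 3 was again the lowest, with extremes 1.44-fold apart. Klf15, a Krüppel-like factor that promotes amino acid breakdown for glucose synthesis, measured 12.15, 12.15, 11.87 and 11.93 log2 in mice 1 to 4. Mice 1 and 2 were thus above mice 3 and 4 by more than either pair differed within itself, with an SD of 0.15 and extremes 1.22-fold apart.

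**Figure D1:**
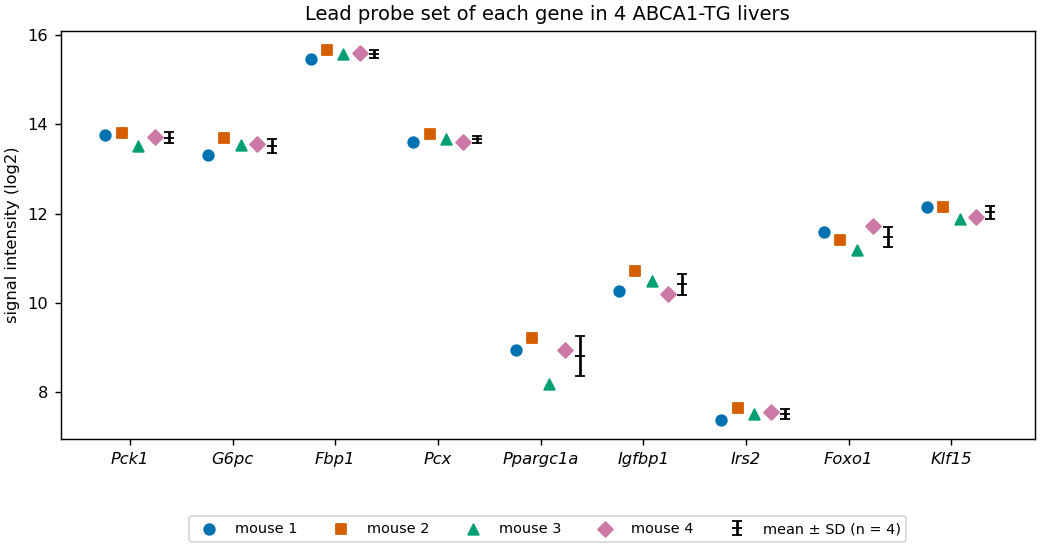
Signal intensity (log2) of the lead probe set of each of the 9 genes in the 4 ABCA1-TG livers, with 1 symbol per mouse and the mean ± SD (n = 4) beside them. Points lie close together for the 4 enzyme genes, and the widest range, 8.16 to 9.20, is that of Ppargc1a.

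None of the 21 probe sets passed a test of spread between livers, which with 4 arrays does not show that their spread was usual. The limma test asks whether a variance over the 4 mice exceeds the prior variance for that level of signal. At an adjusted p under 0.05 the count was 0 of 21, as it was for all 22639 probe sets tested (0%). At an unadjusted p under 0.05 it was 0 of 21 members against 840 of all probe sets (3.71%). The lowest unadjusted p among the 21 was 0.119 (limma), on the lead probe set of Ppargc1a, whose SD was 1.82 times the prior. The lowest adjusted p was 0.977 (limma), a value that this probe set shared with others of the 21. Spread relative to the prior had a median of 0.88 over the 9 lead probe sets, against 0.97 over all probe sets. It was above 1 in 4 of 9, which were Ppargc1a (1.82), Foxo1 (1.30), Igfbp1 (1.21) and G6pc (1.09), against 47.6% of all probe sets. An SD from 4 values is itself loose: its 95% interval for Ppargc1a ran from 0.25 to 1.67 and for Igfbp1 from 0.13 to 0.87. The labels call the mice biological replicates and give no batch, so spread between animals and between arrays cannot be told apart.

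**Figure D2:**
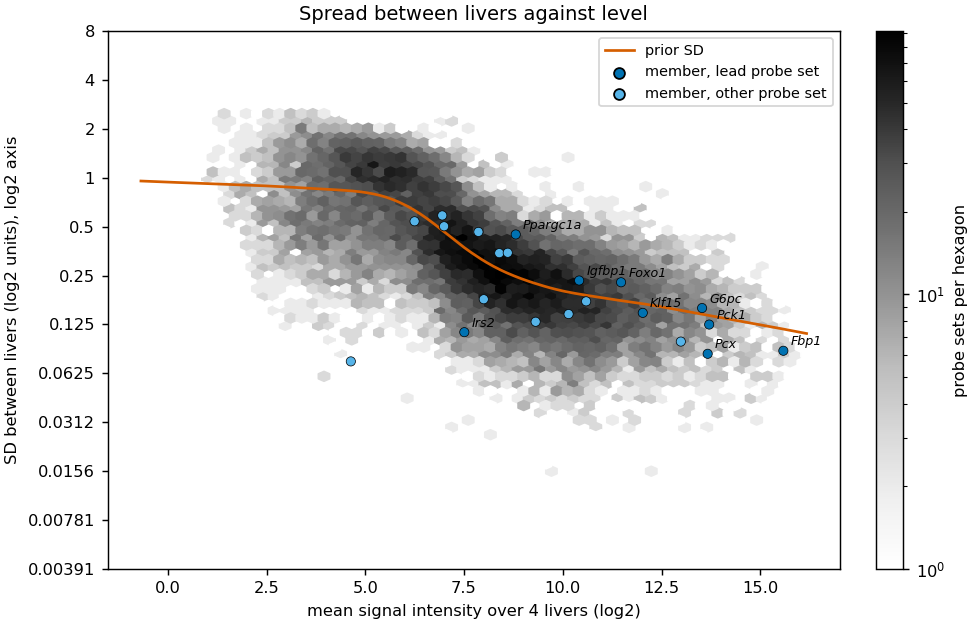
SD between livers in log2 units (vertical, log scale) against mean signal intensity (log2, horizontal), with hexagons for all 22639 probe sets, a line for the prior SD and points for the 21 member probe sets. Ppargc1a lies above the line at 0.45, Irs2 lies below it at 0.11, and the enzyme genes lie near it.

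Mouse 2 had the highest level of 7 of the 9 genes. Pck1, G6pc, Fbp1, Pcx, Ppargc1a, Igfbp1 and Irs2 were highest there, and over all genes measured the lead probe set was highest in mouse 2 for 29.8%. Set against the mean of the other 3 livers, the 9 genes had a median of 0.16 log2 in mouse 2, with 8 of 9 higher, against a median of 0.06 and 57.9% higher over all 12394 genes. Differences in mouse 2 were 0.53 for Ppargc1a, 0.39 for Igfbp1, 0.22 for G6pc, 0.17 for Klf15, and 0.16, 0.15, 0.14 and 0.13 for Irs2, Pcx, Pck1 and Fbp1. Foxo1, at -0.08, was the exception. None of the 9 was past 1.5-fold, a mark that 13.6% of all genes passed upward and 7.22% downward in mouse 2. Without mouse 1 or without mouse 4, Ppargc1a passed it upward, at 0.65 each time. The hepatocyte markers had a median of 0.13 in mouse 2, with 8 of 9 higher and 6 of 9 highest there. Exocrine pancreas markers had a median 1.68 higher in mouse 2 (9 of 9 higher) and summed signals of 6182 in mouse 2 against 1172 to 2340 in the other mice. Their lowest signal on any array was 4.9. Skeletal muscle markers were 1.22 higher (12 of 12), or 0.27 without mouse 1 (10 of 12). Adipocyte markers were 0.91 higher by their median (4 of 6), but Cidec stood at -0.77 and Car3 at -0.21. Their summed signal, most of it from Car3, which hepatocytes also make, was lowest in mouse 2, at 42144 against 47134 to 49784 in the other mice. Adipoq, which defines adipocytes, measured 7.61 log2 in mouse 2, against 5.56 to 6.46 in the others. Pck1 and Ppargc1a are also made in adipocytes and muscle, and the part of these tissues in their levels was not tested. Setting every array to 1 median, which took the median of all genes to -0.03 in mouse 2, gave the 9 genes 0.06 there, with 8 of 9 higher and 3 of 9 highest, while mouse 4 then held the highest level of 5 of 9. In that setting 21.9% of all genes were highest in mouse 2 and 33.2% in mouse 4. Hepatocyte markers then had a median of 0.04, with 6 of 9 higher.

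Mouse 3 had the lowest level of 4 genes, Pck1, Ppargc1a, Foxo1 and Klf15. Against the mean of the other 3 livers they stood at -0.24 log2 for Pck1, -0.21 for Klf15, -0.38 for Foxo1 and -0.86 for Ppargc1a. Of all genes, 20.4% had their lowest level in mouse 3. All 4 were also lower in mouse 3 after quantile normalization and with every array at 1 median. Ppargc1a was the 1 member past 1.5-fold downward in mouse 3, against 7.01% of all genes, and 0 of 9 were past it upward, against 13.9%. The other 5 genes lay between -0.0027 for Fbp1 and 0.11 for Igfbp1 in mouse 3, so the median over the 9 genes was -0.0027, against 0.09 over all genes. Without mouse 1 it was -0.079, with 1 of 9 higher. With every array at 1 median all 9 were lower in mouse 3 and their median was -0.12, against -0.03 over all genes. Hepatocyte markers had a median of -0.07 in mouse 3, with 0 of 9 higher, and of -0.19 with 0 of 9 higher when every array was at 1 median. After quantile normalization it was -0.0085, with 3 of 9 higher. Muscle markers had a median of 0.73 in mouse 3 (-0.25 without mouse 1), macrophage markers of 0.23 (10 of 10 higher) and pancreas markers of -0.68 (1 of 9 higher, or -0.31 without mouse 2 and -1.17 without mouse 1). Their part in the levels of the 4 genes was not tested.

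Mouse 1 was lowest for G6pc, Fbp1 and Irs2, at -0.29, -0.15 and -0.20 log2 against the mean of the other 3 livers. Of all genes, 28.9% had their lowest level in mouse 1. The median over the 9 genes was -0.07, against -0.05 over all genes, with 4 of 9 higher, against 42.8% of all genes. It was -0.0055 with every array at 1 median, -0.026 without mouse 2 and -0.134 without mouse 3. In mouse 4 the median was 0.03, against -0.06 over all genes. There 6 of 9 were higher and 1 of 9 highest, against 42.9% and 19.3% of all genes. After quantile normalization the median was -0.011. With every array at 1 median it was 0.17, against 0.08 over all genes, with 8 of 9 higher and 5 of 9 highest. In that setting 33.2% of all genes and 6 of 9 hepatocyte markers were highest in mouse 4. In mouse 4 of the values as deposited, Foxo1 was at its highest, at 0.33 against the other livers, and Igfbp1 was at its lowest, at -0.30. In mouse 1, 0 of 9 were past 1.5-fold in either direction, against 7.08% of all genes upward and 11.2% downward. Counts were also 0 of 9 in mouse 4, against 6.24% upward and 13.4% downward. Muscle markers had a median of -2.47 in mouse 1 (0 of 12 higher), exocrine pancreas markers of -1.16 (0 of 9 higher, or -0.68 without mouse 2) and bile duct markers of -0.91 (0 of 7 higher). Whether RNA of these tissues bears on the 9 genes in mouse 1 was not tested.

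**Figure D3:**
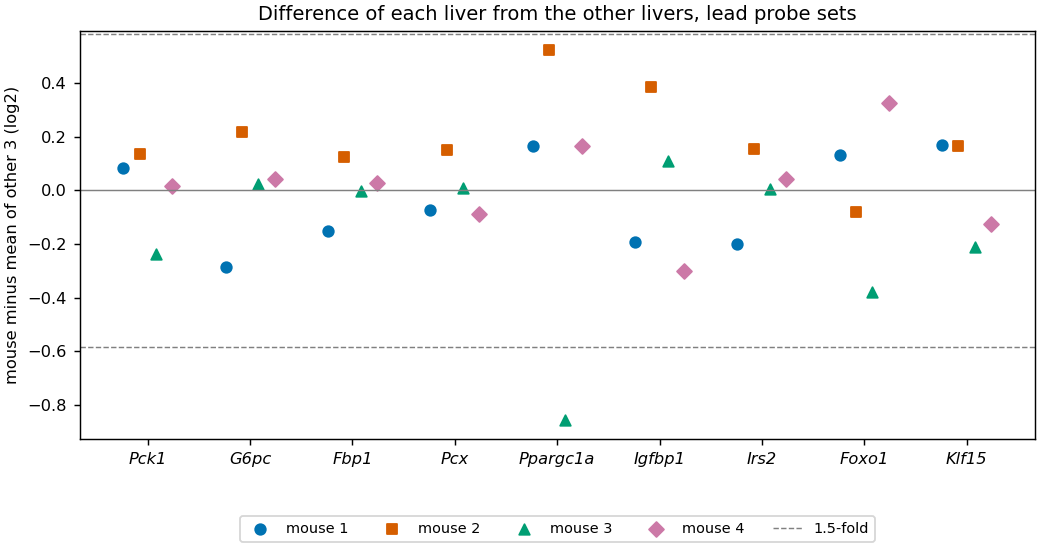
Log2 difference of each liver from the mean of the other 3 for the lead probe set of each gene, with dashed lines at 1.5-fold. Mouse 2 lies above 0 for 8 of 9 genes, and the 1 point beyond a dashed line is Ppargc1a in mouse 3 at -0.86.

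Genes with several probe sets gave a second reading of the same RNA. In Ppargc1a, 4 of 5 probe sets were lowest in mouse 3, at -0.86, -0.46, -0.88 and -1.06 log2 against the other livers. The exception, the third brightest, measured 7.94, 8.14, 8.15 and 7.77 log2 in mice 1 to 4, which made mouse 3 its highest. Of these 4, the 2 dimmest come from the same source sequence and had low signals of 71 to 183. Mouse 2 was highest on the lead probe set alone, 2 probe sets were highest in mouse 4, and 1 each in mice 1 and 3. A limma test of the difference between mice shared by the probe sets of a gene gave Ppargc1a an unadjusted p of 0.0278 and an adjusted p of 0.494 over 4958 genes. At an unadjusted p under 0.05 it was the 1 of 4 members with several probe sets, against 8.98% of all such genes. After adjustment 0 of 4 members passed, against 0.343% of all. The unadjusted p of Ppargc1a was 0.755 without mouse 3 and 0.0055 with every array at 1 median, where its adjusted p was 0.166 (limma). This test takes the probe sets of a gene as independent, though they share the same RNA and arrays. Its p therefore weighs agreement between probe sets and cannot tell animal from array.

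Foxo1, Pck1 and Pcx showed less in common between probe sets. The 3 brighter probe sets of Foxo1, all from the same source sequence, were lowest in different mice: mouse 3 for the brightest, mouse 4 for the second and mouse 1 for the third. Their ranges were 1.44-fold, 1.29-fold and 1.23-fold, and the fourth had signals of only 24 to 27. The shared-difference test gave Foxo1 an adjusted p of 0.862 (limma). Both probe sets of Pck1 were highest in mouse 2. The dim 1 measured 6.15, 6.996, 6.14 and 5.71 log2 in mice 1 to 4, which are signals of 71, 128, 71 and 52, and the adjusted p of Pck1 was 0.631.

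Pcx also serves as a control for RNA length on this array. Its 3-prime control probe set measured 12.96, 13.05, 13.08 and 12.86 log2 in mice 1 to 4, within 1.16-fold, much as the lead probe set did. The 5-prime control measured 8.87, 8.26, 8.37 and 8.07 log2, with mouse 1 the highest by 0.64 over the mean of the others. In the middle of the transcript, 1 control (MA) measured 8.23, 7.78, 7.24 and 8.21 log2, lowest in mouse 3, and the other (MB) 9.18, 9.46, 9.37 and 9.24. The 3-prime minus 5-prime difference of Pcx was thus 4.09 in mouse 1, and 4.79, 4.71 and 4.79 in mice 2 to 4. For Gapdh the same difference was 1.67 in mouse 1, and 1.94, 2.03 and 2.00 in mice 2 to 4. For Actb it was 1.82 in mouse 1, and 1.88, 2.12 and 2.02 in mice 2 to 4, so mouse 1 lay close to mouse 2. Tfrc went the other way, at 4.03 in mouse 1, and 0.017, 2.61 and 0.030 in mice 2 to 4. The widest range among the controls was 1.98-fold, in the middle (MA). Over its 5 probe sets the shared-difference test gave an adjusted p of 0.803 (limma).

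**Figure D4:**
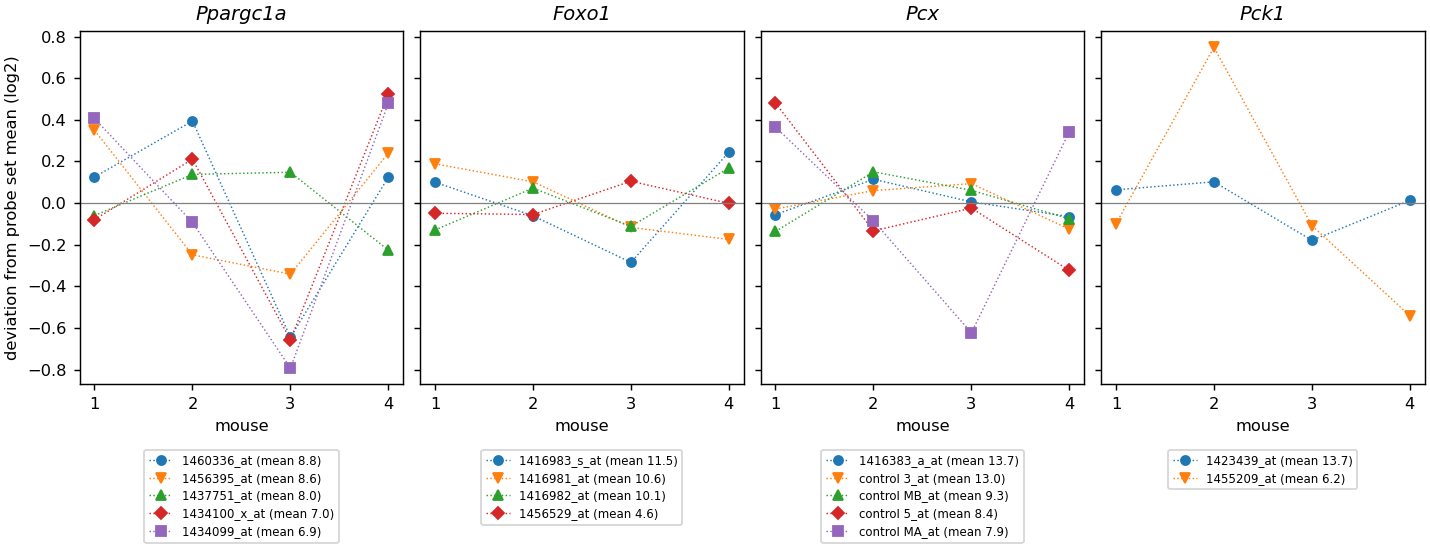
Deviation of each probe set from its own mean over the 4 livers (log2), for the 4 genes with several probe sets, with mouse number on the horizontal axis. Dotted lines join the points of 1 probe set and the mice have no order. Mouse 3 is lowest on 4 of 5 probe sets of Ppargc1a, while those of Foxo1 and Pcx scatter.

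Other genes of the route and its signals were taken from lists that were drawn up with earlier results of these data known, so they add no independent support. Enzymes and transporters of the same route had 15 of 20 genes measured, and 0 passed limma's test at an adjusted or unadjusted p under 0.05. Of all probe sets, 0% and 3.71% passed. The median of these enzymes and transporters was 0.15 log2 in mouse 2 (11 of 15 higher), and without mouse 1 it was 0.06 (10 of 15). The widest were Pck2, the mitochondrial form of the carboxykinase, at 4.61, 6.79, 6.96 and 7.06 log2 in mice 1 to 4, and Fbp2, the muscle form of fructose bisphosphatase, at 7.07, 8.24, 7.95 and 7.43. Pck2 was dim, with a signal of only 24.4 in mouse 1. Fbp2 was lowest in mouse 1, where muscle markers summed to a signal of 1513, against 8100 to 10822 in the other mice, and their part in Fbp2 was not tested. The narrowest was Tpi1, triose phosphate isomerase, at 13.47 ± 0.051 (SD, n = 4).

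The insulin signal relay had 16 of 17 genes measured, and 1 had an unadjusted p under 0.05, against 3.71% of all probe sets. That gene was Foxo3, a relative of Foxo1, at 11.98, 11.47, 11.15 and 12.10 log2 in mice 1 to 4 (adjusted p = 0.977, limma). Its order of mice, highest in mouse 4 and lowest in mouse 3, was that of the Foxo1 lead probe set. Grb10, an adaptor that dampens the insulin receptor, was next in spread at 8.52, 9.04, 9.23 and 8.86 log2, and Rheb, a GTPase below AKT, the narrowest at 12.80 ± 0.071 (SD, n = 4). Of the glucagon, cyclic AMP and glucocorticoid relay 14 of 15 genes were measured and 0 had an unadjusted p under 0.05 (3.71% of all probe sets). Crtc2, a CREB coactivator, and Creb1 were the widest at low levels, with Crtc2 at 6.48, 5.65, 4.27 and 6.52 log2 and Creb1 at 7.14, 7.92, 6.73 and 6.87 in mice 1 to 4. Both were lowest in mouse 3, as Ppargc1a was. Hnf4a, which keeps hepatocyte genes on, varied least at 14.25 ± 0.046 (SD, n = 4).

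Genes raised by fasting or glucocorticoid and genes raised by insulin or feeding had medians on opposite sides in mouse 3. The fasting list, with 12 of 14 genes measured, had a median of -0.29 log2 in mouse 3 (5 of 12 higher), or -0.43 without mouse 2 (3 of 12), and 0.32 in mouse 1 (10 of 12 higher). In mouse 3, 4 of its 12 genes were past 1.5-fold downward and 2 upward, against 7.01% and 13.9% of all genes. Those 2, Asns at 0.76 and Per1 at 0.64, had their highest level there. The insulin list, with 9 of 10 measured, had a median of 0.37 in mouse 3 (8 of 9 higher) and -0.55 in mouse 1 (3 of 9 higher). Without mouse 3 the value of mouse 1 was 0.24 for the fasting list and -0.29 for the insulin list. G0s2, an inhibitor of lipolysis, measured 13.56, 12.76, 12.22 and 13.77 log2 in mice 1 to 4. Fgf21, a fasting hormone, measured 7.16, 5.23, 6.72 and 7.21, with a low signal of 37.6 in mouse 2. Unadjusted p was under 0.05 for 3 of 12 fasting genes, G0s2, Fkbp5 and Lpin1, each with its lowest level in mouse 3. It was under 0.05 for 4 of 9 insulin genes, Srebf1, Fasn, Thrsp and Egr1. Over all probe sets the share was 3.71%, and both lists were drawn up with earlier results of these data known. Srebf1, which drives fatty acid synthesis, measured 11.54, 12.01, 13.44 and 11.66 log2 in mice 1 to 4, highest in mouse 3. Thrsp, a lipogenic protein, was highest in mouse 2 at 15.11 and lowest in mouse 1 at 13.94. Fasn, fatty acid synthase, measured 12.16 log2 in mouse 3 and 11.13, 11.57 and 11.32 in mice 1, 2 and 4. Egr1, an immediate early factor, measured 10.35, 9.08, 9.83 and 9.24 log2 in mice 1 to 4. It was highest in mouse 1, where the list was low, and in mouse 3 it stood at 0.27, higher as most of the list was. Scd1 was narrowest at 15.29 ± 0.14 (SD, n = 4) and was the exception in mouse 3, at -0.21. Tsc22d3, a glucocorticoid target, was the narrowest of the fasting list at 11.88 ± 0.19 (SD, n = 4). After adjustment over all probe sets 0 of these passed. Fkbp5, Lpin1, Fasn and Thrsp are named for their p, and Asns and Per1 for passing 1.5-fold upward in mouse 3, with their values known.

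The median SD was 0.43 log2 in the fasting list and 0.41 in the insulin list, against 0.15 over the 9 lead probe sets and 0.30 over all probe sets. SD falls with signal level, and lead probe sets are the brightest of their gene. Relative to the prior for their level, the medians were 1.67 in the fasting list and 2.28 in the insulin list, against 0.88 over the 9 lead probe sets and 0.97 over all probe sets. Clock genes, which carry the time of day, had 10 of 10 measured, with a median SD of 0.31 and 0 at an unadjusted p under 0.05 (3.71% of all probe sets). The list joins genes that peak at opposite times of day, so its median cannot read the time of day. That median was 0.21 in mouse 1 (7 of 10 higher) and -0.11 in mouse 3 (2 of 10 higher). The value of mouse 3 was -0.23 without mouse 2 and -0.049 without mouse 4, and that of mouse 1 was 0.13 without mouse 2. Npas2 measured 6.33, 3.29, 3.05 and 5.79 log2 in mice 1 to 4, at low signals of 8.3 to 80.3. Cry1, a repressor of the loop that also restrains glucagon signalling, measured 10.15, 10.21, 9.25 and 9.64. Tef, a clock output factor, was the narrowest at 12.05 ± 0.064 (SD, n = 4).

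**Figure D5:**
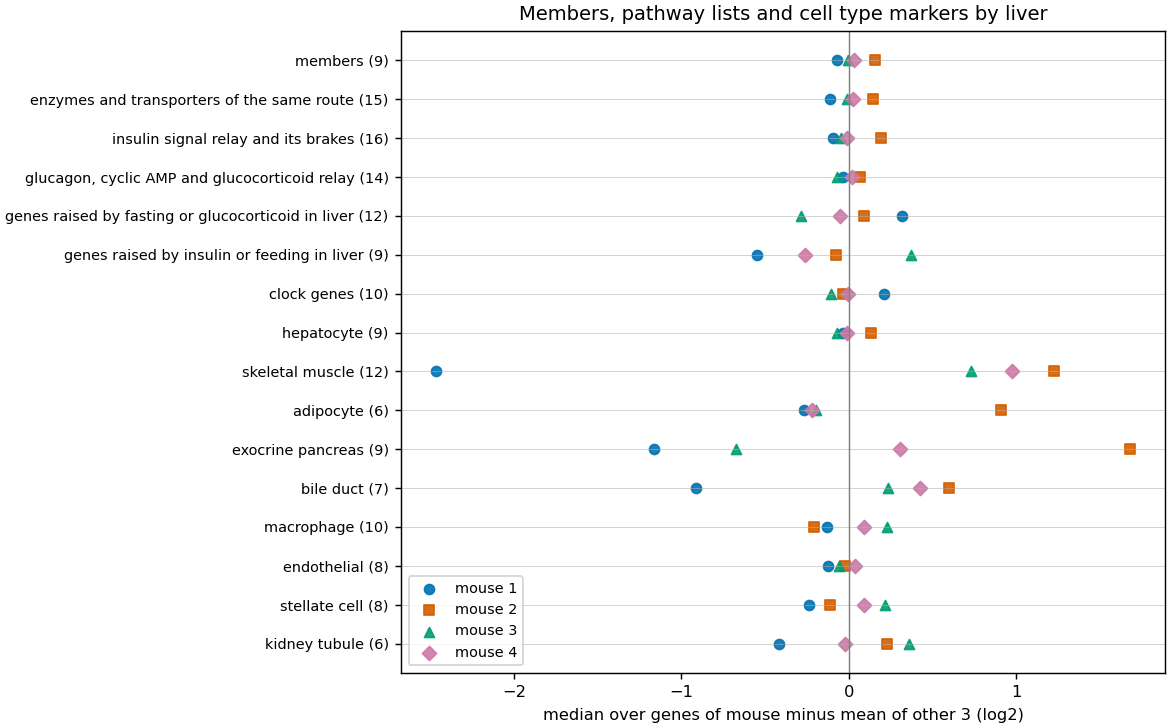
Median over genes of each liver minus the mean of the other 3 (log2), for the 9 genes, 6 pathway lists and 9 marker lists, with the number of measured genes in brackets and 1 symbol per mouse. The 9 genes span -0.07 to 0.16, the medians of the fasting and insulin lists lie on opposite sides in mouse 3, and muscle markers reach -2.47 in mouse 1.

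The genes whose pattern over the 4 mice came nearest were sought for the 3 widest members above the median level, as the root mean square distance between profiles set to the same mean. For Ppargc1a they were Ppp2ca, a phosphatase subunit, at 0.043 log2, the chaperone Hspa8 at 0.046 and the metal-responsive factor Mtf1 at 0.055, and 11 of 7158 genes lay within 0.1. For Foxo1 they were Elf1 at 0.011, F5 at 0.016 and Cdh5 at 0.018, and for Igfbp1 they were Stip1 at 0.014, Lrrc14 at 0.016 and Ddt at 0.017. Within 0.1 there were 421 genes for Foxo1 and 420 for Igfbp1.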

How the data were processed

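The authors deposited a table of linear signal intensity, with 1 value for each probe set on each array. RMA is named, without a version, in the submitters' processing notes. The labels do not say how background was treated, probes combined or arrays scaled, and no detection calls were used. With 2% trimmed from either end, all 4 arrays had a mean of 1000, and no pair of arrays was a copy of another. The median signals of the arrays ran from 267 to 305, so the deposited values do not carry the quantile normalization usual in RMA.

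The log2 of each intensity was taken, without a pseudocount or renormalization. Probe sets were named by the platform annotation: 20393 had 1 symbol, 691 several and 1606 none. Control probe sets were left out unless they had 1 mouse symbol, which kept 13 of 64 and left 22639. The members, lists and tests were chosen with earlier results of these data known. The rule for names took every member, the 2 widest and the 1 narrowest gene of each pathway list, and the 3 nearest patterns.

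With 1 group, 2 tests were run across the array with limma 3.58.1 in R 4.3.3, both adjusted by the Benjamini-Hochberg method. The first set each variance between mice against a robust prior that follows mean level (upper-tail F). The second, for the 4958 genes with 2 or more probe sets, set the difference between mice that they share against their moderated disagreement. Both were tested on simulated data with independent noise and no offset between arrays. The simulation therefore does not cover array offsets that all probe sets of a gene share. Differences of a mouse from the other 3 are descriptions with no test. Alternatives were quantile normalization, a shift to the same median, a floor of 64 on signals, other priors, filters, other summaries and leaving out each mouse. The number of arrays limits the precision.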

Additional observations from a re-analysis of the deposited data

Results flagged for a closer look

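A gap test for 1 value of 4 far from the rest (Dixon's ratio of the gap to the whole range, at its 95% critical value) was met by 0 of the 21 member probe sets, and by 5.90% of all probe sets. The Pcx 3-prime minus 5-prime difference met it with a ratio of 0.886, since mouse 1 lay at 4.09 and mice 2 to 4 at 4.71 to 4.79. Of 22 genes named from the pathway lists, which leave out Asns and Per1, 3 met it. Pck2 met it with a ratio of 0.889, at 4.61 log2 in mouse 1 and 6.79 to 7.06 in mice 2 to 4. Its signal in mouse 1 was only 24.4. Lpin1, which makes diacylglycerol, met it with 0.852, at 11.74 log2 in mouse 3 and 12.79 to 12.97 in the other mice. Tef met it with 0.928, at 12.15 log2 in mouse 1 and 12.01 to 12.02 in the other mice. Chance alone gives about 1 flag in 20 groups.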

How the results depend on the processing

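The count of members past limma's adjusted threshold was 0 in both tests under every alternative run. At an unadjusted p under 0.05 for spread the count was 0 of 21 except with signals under 64 raised to 64, where it was 1, the dim probe set of Pck1 (adjusted p = 0.372, limma). That floor removes spread at low levels and so lowers the prior there, and it raised the count over all probe sets to 2333. The shared-difference test called 17 genes of the array, 54 with arrays shifted to the same median, and 0 to 4 with 1 mouse left out. The floor changed no lead probe set of the 9 genes. Their median in mouse 1 was -0.107 after quantile normalization, -0.0055 with arrays shifted to the same median and -0.134 to -0.026 with 1 mouse left out. The median of the 9 genes in mouse 2 ran from 0.14 to 0.17 with 1 mouse left out. It was 0.149 after quantile normalization and 0.064 with arrays shifted to the same median. In mouse 3 it was -0.15 after quantile normalization, -0.12 after the shift, -0.13 with the mean over all probe sets of a gene, -0.17 as a mean over members, and -0.079 to 0.044 with 1 mouse left out. In mouse 4 it was -0.011 after quantile normalization, 0.17 after the shift and -0.070 to 0.079 with 1 mouse left out. The cause was not tested. Of 36 alternative values of these medians 32 kept their sign, but the floor could not change any of them. All changes of sign were in mice 3 and 4. The median as deposited in mouse 3 was -0.0027, so near 0 that its sign says little. No paired analysis was possible because the labels give 1 group. With 4 arrays and no detection calls, dim probe sets such as those of Irs2 and Ppargc1a limit what can be read.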
